A study of Homo sapiens with 6 samples.

Results

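The zinc transporters and metallothioneins were followed across 6 human prostate cancer cell lines: the protein-coding genes of the zinc exporter family SLC30A, the zinc importer family SLC39A, the metallothioneins MT1, MT2A and MT3, and the zinc-sensing transcription factor MTF1. The gene families were matched by name, which gave 35 of 51698 listed genes: 10 SLC30A genes, 14 SLC39A genes, 9 genes of the MT1 and MT2A group, MT3 and MTF1. Of the 35, 24 averaged 1 scaled FPKM or more over the 6 libraries, the minimum used here, and were tested among 18004 gene symbols, 11344 of them protein-coding. FPKM is the fragment count divided by gene length and library total, and scaled FPKM is that value divided by a factor per library. The 11 members below the minimum were MT1A, MT1B, MT1H, MT1M, SLC30A2, SLC30A3, SLC30A8, SLC30A10, SLC39A2, SLC39A5 and SLC39A12. Closest to the minimum were MT1H, left out at a mean of 0.964, and MT3, kept at 1.69. MT3 and MT1E passed only through the VCaP lines, averaging 0.275 and 0.509 in the other 4 libraries.

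The study set castration-sensitive lines beside castration-resistant lines that carry the same parental name. LnCaP and LAPC4 were sensitive and kept in RPMI with 10% fetal bovine serum, and VCaP was sensitive and kept in DMEM with 10% fetal bovine serum. LnCaP-abl, VCaP-CR and LAPC4-CR were resistant and all kept in RPMI with 10% charcoal-stripped serum, which is depleted of steroids, and B27, a defined supplement. Castration state and medium therefore cannot be told apart, and each line had 1 library, so a change within a pair has no replicate check.

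Total counts lay between 8661337 and 22433655 per library, with the resistant library deeper in each pair, and protein-coding genes took 62.8% to 79.5% of the counts, a higher share in the resistant library of each pair (67.8% against 77.4%, 62.8% against 68.0%, and 68.3% against 79.5% for LnCaP, VCaP and LAPC4). The part of this shift in the results below was not tested. All 9 luminal prostate markers passed the minimum, with a summed level of 238.4 to 2016 scaled FPKM. Basal markers summed to at most 2.30 and immune markers to at most 2.68. Of 5 stromal markers, LUM alone passed the minimum, at 49.4 in VCaP-CR, 3.84 in VCaP and at most 1.11 elsewhere. ERG stood at 16.5 in VCaP and 5.38 in VCaP-CR against at most 0.193 in the other lines. Some luminal markers were nearly absent from a resistant line: KLK3 was at 0.676 in LnCaP-abl, and in LAPC4-CR HOXB13 was at 1.66 and TMPRSS2 at 0.661. The part of these markers was not tested either.

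Zinc moves across membranes through a pair of transporter families that work in opposite directions. SLC39A (ZIP) proteins bring zinc into the cytosol from outside the cell or from organelles, and SLC30A (ZnT) proteins move it out of the cytosol into organelles, vesicles or the outside. Metallothioneins are small cysteine-rich proteins that bind zinc and other metals in the cytosol. MTF1 responds to free zinc by binding metal response elements in promoters, and metallothionein genes and SLC30A1 are its textbook targets. The normal prostate is known for accumulating zinc and secreting citrate, and prostate cancer is known for losing much of that zinc.

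Promoter sequences of 4 members are shown because they carry the short core of the metal response element, the feature that ties metallothioneins and SLC30A1 to MTF1. Each is the 250 bases before the annotated transcription start in RefSeq, build GRCh38.p14, 5′ to 3′ on the strand of the gene, and capitals mark matches to TGCACNC or TGCGCNC on either strand (N is any base). MT2A lies on the plus strand at chr16:56608334-56608583, MT1H on the plus strand at chr16:56669564-56669813, MT1X on the plus strand at chr16:56682220-56682469 and SLC30A1 on the minus strand at chr1:211579162-211579411.
MT2A: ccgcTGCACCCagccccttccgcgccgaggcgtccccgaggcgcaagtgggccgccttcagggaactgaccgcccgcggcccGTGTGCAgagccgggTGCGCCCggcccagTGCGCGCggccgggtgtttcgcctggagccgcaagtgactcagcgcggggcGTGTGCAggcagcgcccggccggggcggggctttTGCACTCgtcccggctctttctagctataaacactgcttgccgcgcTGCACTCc
MT1H: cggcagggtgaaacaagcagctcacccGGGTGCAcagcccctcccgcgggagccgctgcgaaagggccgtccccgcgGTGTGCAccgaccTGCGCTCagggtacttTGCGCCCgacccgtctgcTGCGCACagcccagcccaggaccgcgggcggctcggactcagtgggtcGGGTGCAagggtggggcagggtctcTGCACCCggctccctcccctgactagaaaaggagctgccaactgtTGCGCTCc
MT1X: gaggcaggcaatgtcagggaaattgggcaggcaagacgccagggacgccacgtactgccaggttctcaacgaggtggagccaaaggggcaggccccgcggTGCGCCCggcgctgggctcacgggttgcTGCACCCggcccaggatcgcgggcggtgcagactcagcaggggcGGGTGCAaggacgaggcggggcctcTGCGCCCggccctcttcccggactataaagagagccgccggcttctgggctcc
SLC30A1: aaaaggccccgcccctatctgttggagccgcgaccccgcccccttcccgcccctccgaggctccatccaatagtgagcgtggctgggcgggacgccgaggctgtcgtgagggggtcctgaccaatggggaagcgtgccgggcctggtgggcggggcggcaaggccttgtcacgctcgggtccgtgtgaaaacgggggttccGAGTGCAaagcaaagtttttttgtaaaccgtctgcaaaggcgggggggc

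The cores were searched as separate words, and no neighbouring matches overlapped in these windows. MT1H held 8 matches, MT2A 7, MT1X 4 and SLC30A1 1. Among all 35116 RefSeq windows of the same length, 24.8% held at least 1 match, 0.37% at least 4 and 0.0513% at least 6. The highest number in any window was 12. MT1H and MT1X, with MT1B, shared a match at bases 53 to 47 before the start, and MT2A had its match at bases 54 to 48. SLC30A1 had its only match at bases 49 to 43 before the start, on the opposite strand. RefSeq windows were searched for 26 members, 14 of which held a match, and MTF1, SLC30A7 and SLC39A11 held none. SLC30A8, SLC39A4 and SLC39A14, which lie on chromosome 8, were left out of this search. The shares over all windows left out no chromosome. MT1A, MT1E, MT1F, MT1G, MT1M and MT3 had no window and were not searched. Of 21 transporter genes searched, 10 held at least 1 match, mostly a single one. Counted by window, as the share over all genes is, 11 of the 30 transporter windows searched held a match. A match is a run of letters and not a measured binding site.

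The metallothionein pool was larger in LnCaP-abl and LAPC4-CR than in their parents, mainly through MT1G, MT1F and MT2A, and the VCaP lines differed from the rest in which genes made it up. How reads that match several near-identical MT1 copies were counted is not given in the sources used here, so the split between MT1 genes is uncertain. A sum of scaled FPKM over them is also touched where reads move between genes of different length, which a sum of counts is not. The 10 members MT1A to MT3 on chromosome 16 lie within 94.9 kb (55180685 to 55275609, hg18), in the order MT3, MT2A, MT1E, MT1M, MT1A, MT1B, MT1F, MT1G, MT1H and MT1X. The summed level of the 9 MT1 and MT2A genes was 41.7 scaled FPKM in LnCaP against 68.0 in LnCaP-abl, 42.9 in VCaP against 47.1 in VCaP-CR, and 57.6 in LAPC4 against 87.8 in LAPC4-CR. The sum was 1.63 times as high in LnCaP-abl as in LnCaP and 1.53 times as high in LAPC4-CR as in LAPC4. It rests on 211 to 992 counts per library, and in bulk RNA fewer expressing cells and less RNA per cell cannot be told apart. The VCaP lines stood at a ratio of 1.10, and on depth-normalised counts (CPM) that pair gave a log2 change of -0.08 in place of 0.14.

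**Figure D1:**
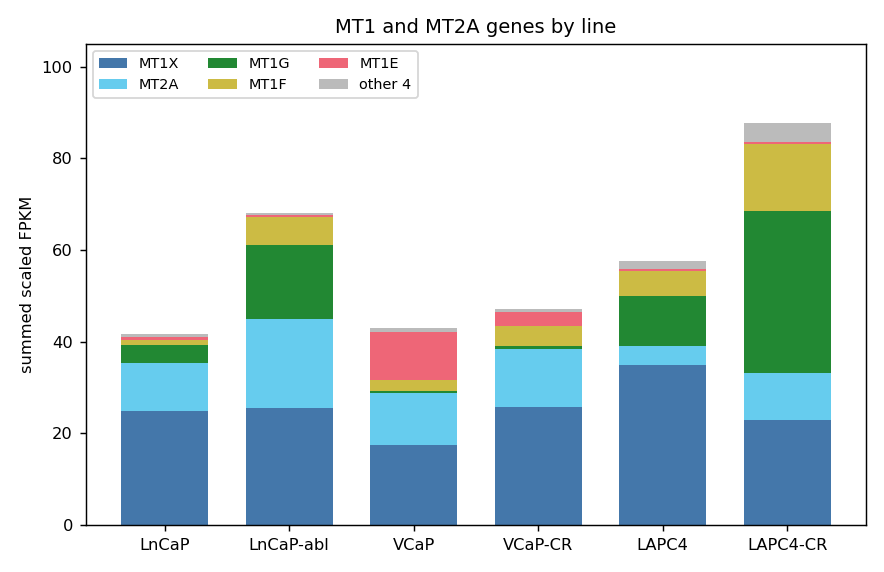
Stacked bars give the scaled FPKM of the MT1 and MT2A genes in each of the 6 libraries, 1 library per line, with 4 low genes (MT1A, MT1B, MT1H and MT1M) summed as other. MT1X is the largest block in every line except LAPC4-CR, where MT1G is, and MT1E is a large block in VCaP and a smaller one in VCaP-CR.

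MT1X, a broadly expressed metallothionein, was at 24.8 scaled FPKM in LnCaP against 25.6 in LnCaP-abl, 17.5 in VCaP against 25.8 in VCaP-CR, and 35.0 in LAPC4 against 22.9 in LAPC4-CR. The groups overlapped, and its mean log2 change over the pairs was -0.00 ± 0.57 (SD, n = 3 pairs). MT1X supplied 59.6% of the summed level in LnCaP and 37.7% in LnCaP-abl, and 60.8% in LAPC4 against 26.1% in LAPC4-CR. In the VCaP lines its share went the other way, from 40.7% to 54.7%.

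MT1G had the widest range of the metallothioneins with counts in every line. Its level was 3.94 scaled FPKM in LnCaP against 16.3 in LnCaP-abl, 0.491 in VCaP against 0.606 in VCaP-CR, and 10.9 in LAPC4 against 35.4 in LAPC4-CR, from 15, 75, 2, 4, 59 and 344 counts. It was almost absent from the VCaP lines, and in the other lines each resistant library lay above both sensitive ones. LnCaP-abl was 4.13 times LnCaP, and LAPC4-CR was 3.26 times LAPC4. In LAPC4-CR it supplied 40.3% of the summed level, against 1.29% in VCaP-CR. The 2 and 4 counts of the VCaP lines have exact 95% Poisson intervals of 0.2 to 7.2 and 1.1 to 10.2, so no change could be detected there at this depth.

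MT1F, which lies beside MT1G, was higher in the resistant line of all 3 pairs. It was at 1.20 in LnCaP against 5.96 in LnCaP-abl, 2.25 in VCaP against 4.29 in VCaP-CR, and 5.56 in LAPC4 against 14.6 in LAPC4-CR. Each resistant line stood above its own parent, at 4.96, 1.91 and 2.62 times its level, but VCaP-CR was below LAPC4, so the groups overlapped. The LnCaP value rests on 5 counts (exact 95% Poisson interval 1.6 to 11.7). MT1H, the next gene along, stayed at 2 counts or fewer in the LnCaP and VCaP lines and had 8 in LAPC4 and 31 in LAPC4-CR, a ratio of 2.16. MT1F, MT1G and MT1H span 13.2 kb.

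MT2A, the single MT2 gene and usually the most abundant metallothionein in human cells, was at 10.4 in LnCaP against 19.3 in LnCaP-abl, 11.4 in VCaP against 12.7 in VCaP-CR, and 4.08 in LAPC4 against 10.2 in LAPC4-CR. It was higher in the resistant line of every pair, by 1.85, 1.11 and 2.51 times, while LAPC4-CR stayed below sensitive LnCaP and VCaP. The fitted log2 change was 0.79 (SE 0.36) with an edgeR adjusted p of 0.542.

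MT1E had a different pattern from its neighbours. Its level was 10.6 in VCaP and 3.21 in VCaP-CR but 0.708 in LnCaP, 0.418 in LnCaP-abl, 0.355 in LAPC4 and 0.555 in LAPC4-CR. The VCaP lines alone expressed it above 1, and the resistant line of that pair had the lower level, 3.30 times below the parent, from 112 and 55 counts. MT1E gave 24.7% of the summed level in VCaP and 6.81% in VCaP-CR.

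MT3, a metallothionein best known from brain, was also a gene of the VCaP lines, at 1.65 in VCaP and 7.38 in VCaP-CR. LnCaP had 0 counts (exact 95% upper bound 3.7), LnCaP-abl 7, VCaP 11, VCaP-CR 80, and LAPC4 and LAPC4-CR 1 each. VCaP-CR was 4.49 times VCaP, and no ratio is given for the other pairs because of the low counts.

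**Figure D2:**
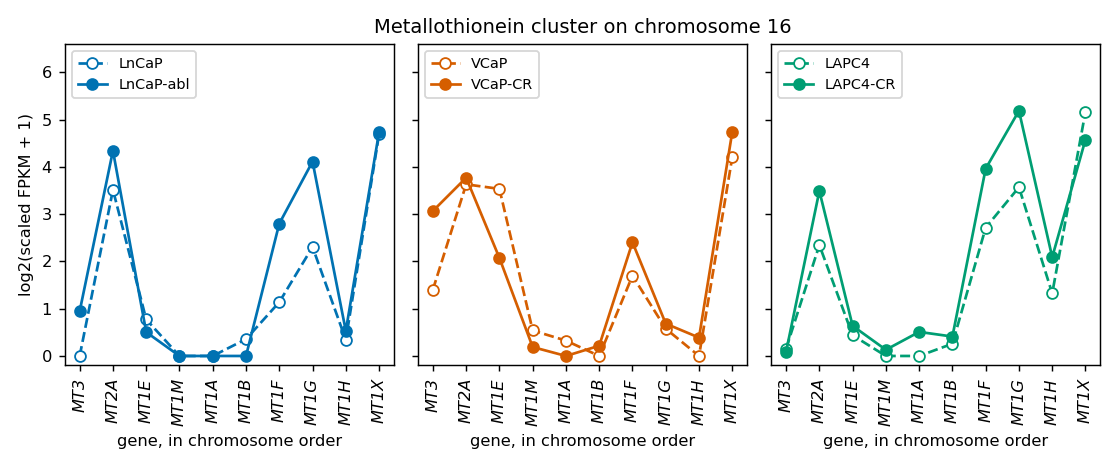
Log2(scaled FPKM + 1) of the 10 metallothionein genes in chromosome order, with a panel for each pair, open points for the sensitive and filled points for the resistant line; lines join genes only as a guide. MT1F and MT1G lie higher in LnCaP-abl and LAPC4-CR than in their parents, while in the VCaP panel MT1E lies lower and MT3 higher in VCaP-CR.

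MTF1 itself spanned 1.73-fold over the lines, from 2.87 in VCaP and 3.02 in VCaP-CR to 4.22 in LnCaP, 4.95 in LnCaP-abl, 3.70 in LAPC4 and 4.57 in LAPC4-CR. It was higher in each resistant line, by 0.19, 0.06 and 0.25 on the log2 scale, and the fitted change of 0.21 (SE 0.29) had an edgeR adjusted p of 0.841.

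Among the exporters, SLC30A1, the plasma membrane exporter that MTF1 is known to control, was the only tested member whose 3 resistant libraries all lay above the 3 sensitive ones. It was at 4.18 in LnCaP, 5.33 in LAPC4 and 5.85 in VCaP, and at 6.99 in LAPC4-CR, 7.43 in VCaP-CR and 10.4 in LnCaP-abl. Such a separation upward was found for 4.02% of all tested genes and for 5.29% of protein-coding ones, so 1 of 24 members is near the background. The log2 change was 1.14 in the LnCaP pair and 0.30 and 0.33 in the VCaP and LAPC4 pairs, and the fitted change was 0.68 (SE 0.30) with an edgeR adjusted p of 0.538.

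SLC30A4, which fills secretory vesicles with zinc, had the widest range of the exporters. It was at 25.9 in LnCaP against 72.5 in LnCaP-abl, 11.7 in VCaP against 30.2 in VCaP-CR, and 4.20 in LAPC4 against 2.31 in LAPC4-CR, a 31.3-fold span between the highest and the lowest line. The LnCaP and VCaP pairs were higher in the resistant line, by 2.80 and 2.57 times, and the LAPC4 pair was lower, by 1.82 times. SLC30A4 made up 44.7% of the summed SLC30A level in LnCaP-abl and 2.77% in LAPC4-CR.

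SLC30A9, listed in this family and known for a mitochondrial role, was the most abundant exporter in all lines but LnCaP-abl, at 25.9 to 47.1. SLC30A5 and SLC30A6, which work as a complex in the early secretory pathway, lay at 12.9 to 24.002 and at 7.74 to 10.8. SLC30A5 and SLC30A9 were higher in the resistant line of all 3 pairs, by 0.10 to 0.64 on the log2 scale. SLC30A7, a Golgi transporter, was at 5.35 in LnCaP against 5.04 in LnCaP-abl, 2.41 in VCaP against 5.45 in VCaP-CR, and 4.85 in LAPC4 against 11.7 in LAPC4-CR. It was 2.26 times as high in VCaP-CR as in VCaP and 2.41 times as high in LAPC4-CR as in LAPC4, and about level in the LnCaP pair. The summed SLC30A level was 1.63, 1.46 and 1.24 times as high in the resistant line for the pairs in the order LnCaP, VCaP, LAPC4.

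SLC39A6, an estrogen-linked importer also called LIV-1, was the most abundant member overall. It was at 52.0 in LnCaP against 36.3 in LnCaP-abl, 104 in VCaP against 136 in VCaP-CR, and 98.8 in LAPC4 against 163 in LAPC4-CR. The LnCaP lines held the lowest levels and the pairs went in different directions, with log2 changes of -0.51, 0.39 and 0.72. It supplied 19.6% to 49.4% of the summed importer level.

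SLC39A11, an importer of intracellular compartments that lies on chromosome 17 at 68153681 to 68600448 (hg18), had the largest single change. It was at 3.68 in LnCaP against 10.5 in LnCaP-abl, 1.36 in VCaP against 1.92 in VCaP-CR, and 4.94 in LAPC4 against 28.2 in LAPC4-CR. Each resistant line exceeded its parent, by 2.86, 1.41 and 5.71 times, and the VCaP lines were lowest.

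SLC39A8, a plasma membrane importer of zinc, manganese and cadmium on chromosome 4 (103391221 to 103571438, hg18), went the other way in the LnCaP and VCaP pairs. Its level was 10.99 in LnCaP against 3.22 in LnCaP-abl, 2.36 in VCaP against 0.464 in VCaP-CR, and 8.997 in LAPC4 against 9.12 in LAPC4-CR. The resistant line was 3.41 times lower in the LnCaP pair and 5.09 times lower in the VCaP pair, and the LAPC4 lines were level at a ratio of 1.01. Counts were 669 and 237, 154 and 49, and 781 and 1417, and the lowest of these has an exact 95% Poisson interval of 36.3 to 64.8.

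SLC39A13, an importer of the early secretory pathway, was at 1.47 in LnCaP against 4.17 in LnCaP-abl, 1.11 in VCaP against 1.10 in VCaP-CR, and 5.61 in LAPC4 against 2.47 in LAPC4-CR. The LnCaP pair was higher in the resistant line by 2.85 times, the LAPC4 pair lower by 2.27 times, and the VCaP lines were level. SLC39A10, a plasma membrane importer closely related to SLC39A6, was at 13.4 and 8.46 in the LnCaP lines, 5.26 and 5.83 in the VCaP lines and 2.40 and 4.58 in the LAPC4 lines. It was highest in the LnCaP lines, where SLC39A6 was lowest. SLC39A14, which also carries iron and manganese, was at 16.6 and 15.8 in the LnCaP lines, 8.29 and 10.4 in the VCaP lines and 37.2 and 40.1 in the LAPC4 lines, so its level followed the parental line and its log2 change stayed between -0.06 and 0.30.

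SLC39A1, long studied as the main prostate zinc importer, was at 18.9 in LnCaP against 31.1 in LnCaP-abl, 27.4 in VCaP against 25.1 in VCaP-CR, and 33.6 in LAPC4 against 30.8 in LAPC4-CR. LnCaP held the lowest level and LnCaP-abl stood at 1.65 times it, while the other pairs changed by -0.12 each on the log2 scale. SLC39A7 and SLC39A9, importers of the secretory pathway, lay at 28.3 to 67.7 and at 26.0 to 43.4, SLC39A3 at 4.03 to 8.92 and SLC39A4, the intestinal importer, at 1.44 to 2.69. SLC39A3 was lower in all 3 pairs, by at most 0.21 on the log2 scale, the only tested member with that order, 4.17% of the 24, against 17.2% of all tested genes and 11.1% of protein-coding ones. The summed SLC39A level was 1.00, 1.16 and 1.41 times as high in the resistant line of the same pairs, LnCaP first. The LnCaP sum turned to a log2 change of -0.05 on FPKM as deposited and -0.06 on TMM-scaled CPM.

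**Figure D3:**
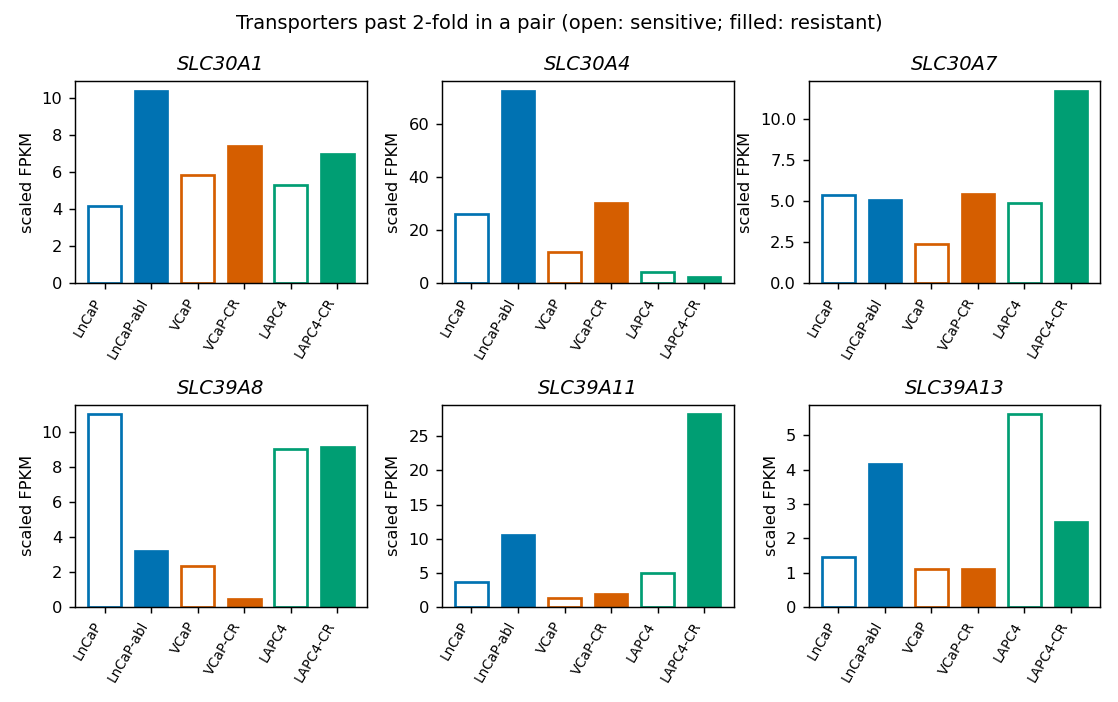
Bars give the scaled FPKM of the 6 transporters that changed at least 2-fold in at least 1 pair, with 1 library per line, open for sensitive and filled for resistant; each panel has its own axis from 0. SLC30A4 is highest in LnCaP-abl (72.5) and lowest in LAPC4-CR (2.31), and SLC39A8 is low in LnCaP-abl and VCaP-CR but level in the LAPC4 lines.

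A change was counted as 2-fold where log2(scaled FPKM + 1) differed by 1 or more. In the LnCaP pair, 6 of 24 tested members were higher by that measure (MT1F, MT1G, SLC30A1, SLC30A4, SLC39A11 and SLC39A13) and SLC39A8 was lower. The background there was 7.02% higher and 8.68% lower of all tested genes, and 8.5% and 3.6% of protein-coding ones. The VCaP pair had 2 higher (MT3 and SLC30A4) and 2 lower (MT1E and SLC39A8), against 2.77% higher and 2.63% lower of all genes, and 2.18% and 1.86% of protein-coding genes. MT3 and MT1E passed the minimum only through the VCaP lines, so their changes there are a description. Among the 22 other members, SLC30A4 alone was higher and SLC39A8 alone lower in that pair. The LAPC4 pair had 5 higher (MT1F, MT1G, MT2A, SLC30A7 and SLC39A11) and 0 lower, against 5.98% and 8.18% of all genes, and 7.55% and 3.99% of protein-coding genes. No member passed 2-fold in the same direction in all 3 pairs.

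The median log2 change of the 24 members was 0.20, 0.28 and 0.20 for the pairs of LnCaP, VCaP and LAPC4. Over tested protein-coding genes it was 0.14, -0.00 and 0.10, and over all tested genes -0.00, -0.01 and 0.00. By group, the 5 MT1 and MT2A genes had medians of 0.83, 0.14 and 1.14, the 6 exporters 0.22, 0.31 and 0.22, and the 11 importers 0.05, -0.01 and 0.10. Higher in all 3 pairs were 8 of 24 members (MT1F, MT1G, MT2A, MTF1, SLC30A1, SLC30A5, SLC30A9 and SLC39A11), against 16.5% of all tested genes and 21.7% of protein-coding ones. MT1G is among the 8 on 2 against 4 counts in the VCaP pair, too few to show a change.

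**Figure D4:**
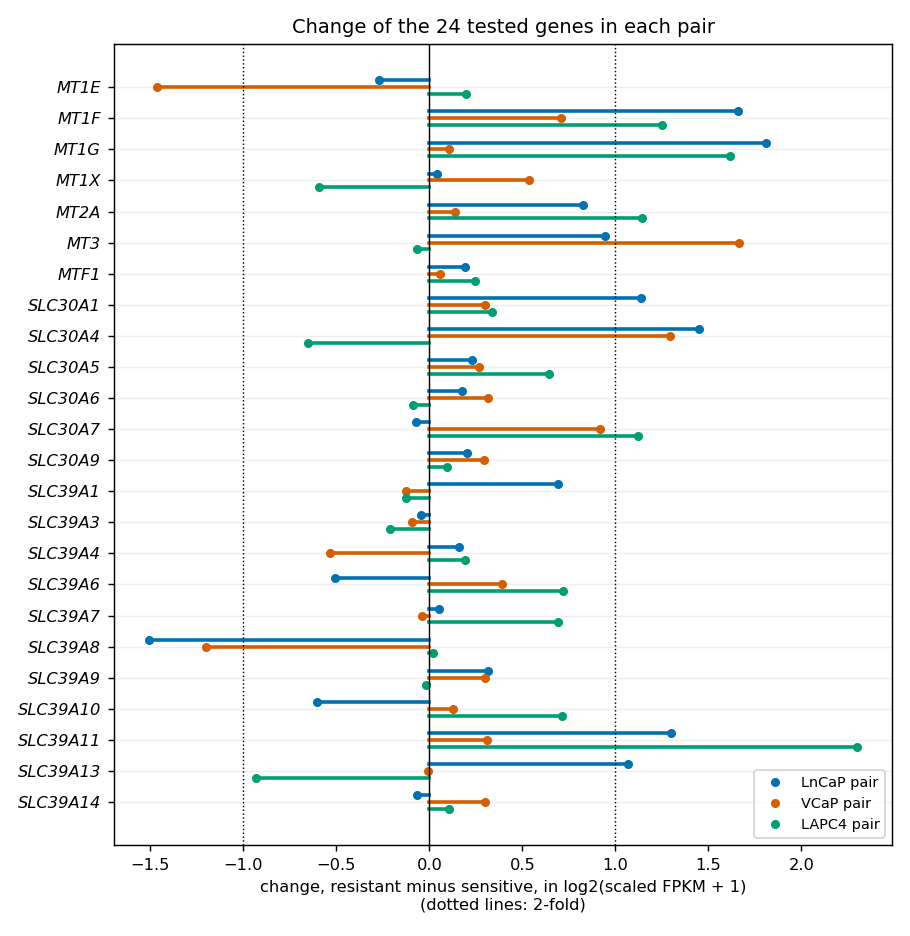
Log2 change, resistant minus sensitive in log2(scaled FPKM + 1), of the 24 tested members in each of the 3 pairs, with dotted lines at 2-fold. MT1F and SLC39A11 lie to the right of 0 in all 3 pairs, SLC39A8 to the left in the LnCaP and VCaP pairs, and SLC30A4 and SLC39A13 on opposite sides in the LnCaP and LAPC4 pairs.

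No member was called between the states by edgeR's quasi-likelihood test over all 3 pairs, and no other tested gene was. Of the 18004 tested symbols, 0 passed an adjusted p of 5%, a background of 0%. The lowest edgeR adjusted p of any tested gene was 0.203. Before adjustment, at p under 0.05, 4 members were higher and 1 lower, against a background of 4.97% higher and 4.39% lower. The higher ones were MT3 with a fitted log2 change of 2.19 (SE 0.76), MT1G with 1.65 (SE 0.43), SLC39A11 with 1.55 (SE 0.43) and MT1F with 1.49 (SE 0.41), and the lower one was SLC39A8 with -1.35 (SE 0.48). MT3 averaged 0.586 in the sensitive lines and entered the test through VCaP-CR, so its value is a description. All 5 had an edgeR adjusted p of 0.499. DESeq2 called 97 genes higher and 82 lower, 0.994% of those tested, and 0 of the 21 members for which it gave an adjusted p (MT1E, MT1F and MT3 had none). Its lowest among them was that of SLC39A11, 0.0574. Limma called 0 genes. Without the LAPC4 pair, SLC39A8 was called lower, among 0.289% of all genes, with a fitted change of -2.04 and an edgeR adjusted p of 0.0401; over all alternatives its adjusted p ran from 0.0401 to 1.00.

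The level of several members followed the parental line. In the same edgeR model, 7 of 24 members (MT1E, MT1G, MT3, SLC30A4, SLC39A8, SLC39A11 and SLC39A14) were called among the LnCaP, VCaP and LAPC4 lines at an adjusted p of 5%, against 12.1% of all tested genes and 14.7% of protein-coding ones. MT1E and MT3 had entered the test only through the VCaP lines, so their calls are a description, and 5 of the 22 other members were called. Each parental line enters with 2 libraries, the parent and its derivative, which are not repeats of a culture. The lowest edgeR adjusted p was that of MT1G, 0.00824, whose fitted level was 5.34 log2 units higher in the LAPC4 than in the VCaP lines. MT1G had 2 counts in VCaP and 4 in VCaP-CR, so the size of that difference is uncertain. MT1E was 3.49 higher in the VCaP than in the LnCaP lines (edgeR adjusted p 0.0172) and MT3 was higher in the VCaP than in the LAPC4 lines, by a LAPC4 minus VCaP difference of -5.72 (0.0196). MT3 had 1 count in each LAPC4 line, so the size of its difference is uncertain as well. SLC30A4 had a LAPC4 minus LnCaP difference of -3.62 (0.0325), and in the LAPC4 against the VCaP lines SLC39A8 was 3.18 higher (0.0389), SLC39A11 2.92 higher (0.0366) and SLC39A14 2.06 higher (0.0184). Just outside were SLC39A6 at 0.0772, MT1F at 0.0816 and SLC39A10 at 0.0880. Without the VCaP pair, SLC30A4 alone of the members was called, with 2.31% of all genes. With protein-coding genes alone 4 members were called (MT1E, MT1G, MT3 and SLC39A14), with 11.4% of all genes in that fit. MT1E and MT3 are again a description there, which leaves MT1G and SLC39A14 among the 22 other members.

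**Figure D5:**
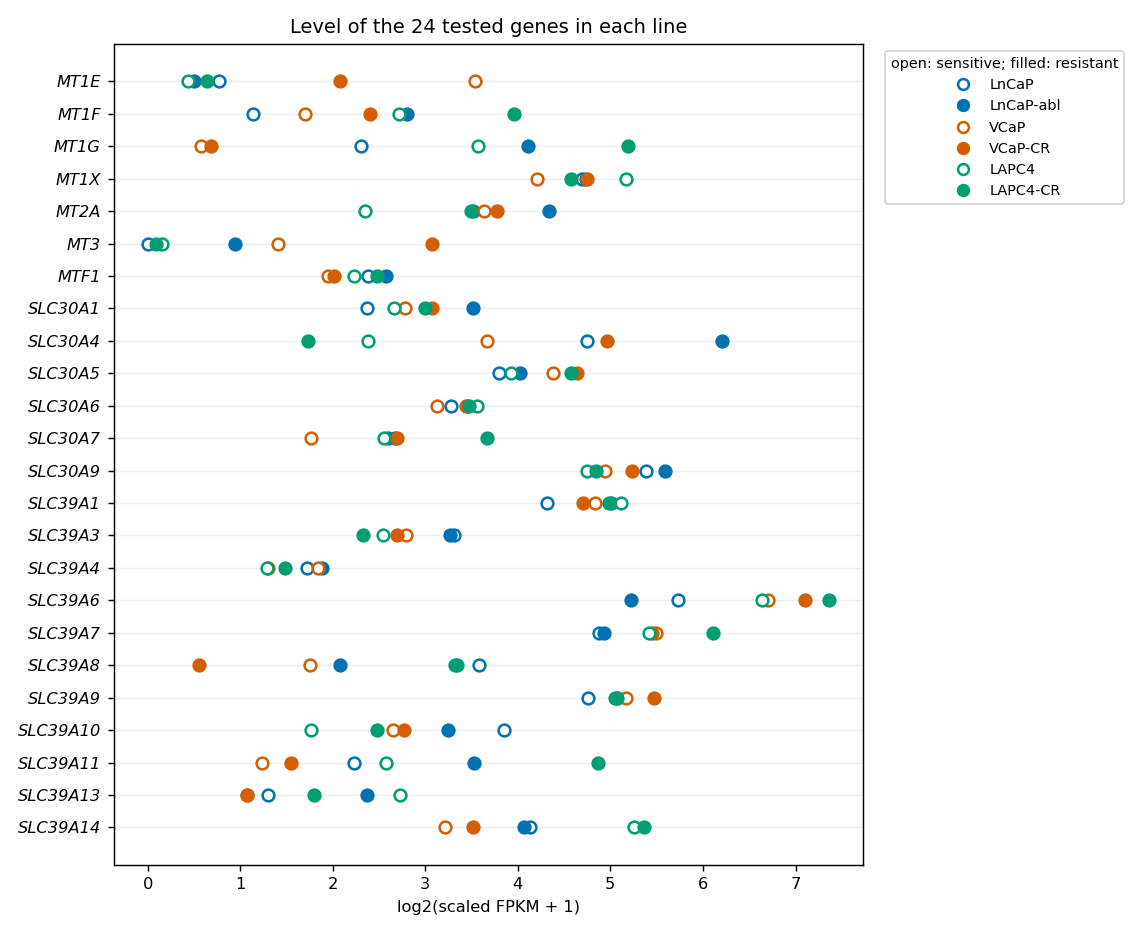
Log2(scaled FPKM + 1) of the 24 tested members in each line, with a colour for each parental line, open for sensitive and filled for resistant. The VCaP and VCaP-CR points lie to the right of all others for MT1E and to the left for MT1G, the colours do not mix for SLC39A14, and SLC30A1 has its filled points to the right of its open ones.

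Genes related to zinc handling were read from 4 lists, and edgeR called 0 genes of each between the states. At an edgeR unadjusted p under 0.05 there were 1 higher among genes for other metals, 1 higher among citrate genes and 5 higher among stress genes. Among genes of the glucocorticoid list 3 were lower, and each list had 0 in the opposite direction. These are 4.55%, 6.25%, 33.3% and 30% of the genes tested in each list, against 4.97% higher and 4.39% lower of all tested genes. DESeq2 called IDH1 higher (adjusted p 0.0182) and ZBTB16 and KLF9 lower (adjusted p 0.000963 and 0.0272), and 0 genes of the other 2 lists. Of 22 tested genes that carry other metals, 3 were higher (13.6%) and 1 lower (4.55%) in all 3 pairs. That order was found for 16.5% and 17.2% of all tested genes, and for 21.7% and 11.1% of protein-coding ones. The medians of this list were 0.28, 0.26 and 0.03 for the LnCaP, VCaP and LAPC4 pairs. The highest mean changes there were those of the metalloreductase STEAP2 (0.68 ± 1.12, SD, n = 3 pairs) and the copper pump ATP7A (0.59 ± 0.13), and the lowest those of the copper transporter SLC31A2 (-0.76 ± 0.78) and the mitochondrial iron carrier SLC25A28 (-0.34 ± 0.31). STEAP2 was at 135.4 in LnCaP-abl and 1.36 in LAPC4-CR.

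Citrate metabolism was represented by 16 genes, of which 6 were higher (37.5%) and 0 lower in all 3 pairs, against 21.7% and 11.1% of protein-coding genes, with medians of 0.29, -0.04 and 0.44. IDH1, the cytosolic isocitrate dehydrogenase, was at 48.2 in LnCaP against 96.8 in LnCaP-abl, 56.7 in VCaP against 115.1 in VCaP-CR, and 59.1 in LAPC4 against 185.4 in LAPC4-CR. Its 3 resistant libraries lay above all sensitive ones, an order found for 5.29% of protein-coding genes, with a mean change of 1.21 ± 0.37 and an edgeR adjusted p of 0.499. The aconitase ACO1 changed by 0.62 ± 0.55 on average, the isocitrate dehydrogenase subunit IDH3B by -0.24 ± 0.32 and the pyruvate dehydrogenase subunit DLAT by -0.21 ± 0.38.

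Metal and oxidative stress genes, 15 in all, were higher in all 3 pairs for 7 genes (46.7%) and lower for 0, against the same 21.7% and 11.1% of protein-coding genes, with medians of 0.65, 0.18 and 0.14. The heat shock proteins DNAJB1 (0.95 ± 0.40) and HSPH1 (0.94 ± 0.43) had the highest mean changes, each higher in 3 of 3 pairs. The thioredoxin reductase TXNRD1 (-0.50 ± 0.58) and the heme oxygenase HMOX1 (-0.23 ± 0.96) had the lowest. The glucocorticoid list, taken up because steroid hormones also act on metallothionein promoters, held the receptor NR3C1 beside genes that respond to it. Of its 10 tested genes, 1 was higher (10%) and 3 lower (30%) in all 3 pairs, against 21.7% and 11.1% of protein-coding genes. The medians were -0.53, -0.25 and -0.80. KLF9 (-1.87 ± 1.61) and ZBTB16 (-1.52 ± 0.80) were lower in 3 of 3 pairs, while NFKBIA (0.45 ± 0.36) was higher in 3 of 3. The glucocorticoid receptor NR3C1 (0.63 ± 1.57) was at 7.22 in LnCaP-abl, 0.511 in LnCaP and at most 0.889 in the VCaP and LAPC4 lines.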

How the data were processed

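Libraries were made with the SOLiD Total RNA-Seq kit from RNeasy RNA, per the labels' protocols. The submitters' processing notes name HTSeq and hg18, while for aligner, annotation and use of strand nothing is given in the sources used here; values of overlapping genes are therefore uncertain. Per the file headers, each of the 6 deposited tables holds a count per gene, in whole numbers, and an FPKM. The authors' deposited FPKM was rebuilt within 1% for 100% of rows as count over gene length and summed counts, so an RNA that takes a large share of a library lowers all other values there. Starts are printed with 1 added, since the tables count from 0.

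Entries sharing a symbol were summed, and FPKM was divided by a median-ratio factor per library (0.871 to 1.08, over 12927 genes). Changes use log2(scaled FPKM + 1), a scale that understates changes of low genes. Counts of the 18004 symbols averaging 1 scaled FPKM or more were fitted in edgeR 4.0.16 under R 4.3.3 with TMM factors and a block for the pair, and the quasi-likelihood test was adjusted by Benjamini-Hochberg over all of them; small RNAs stayed in. Parental lines were compared by an F-test of the pair coefficients in that model. Limma 3.58.1 and DESeq2 1.42.0 were alternatives, with other filters, scalings, pseudocounts and left-out pairs. The edgeR script was run on simulated counts, with the same dispersion for all genes and changes planted only in genes with many counts. That run does not cover members with few counts.

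Pairs follow the line names. Deviations from the group means correlated at 0.44, 0.69 and 0.56 within the LnCaP, VCaP and LAPC4 pairs, and at -0.45 to -0.06 between libraries of different lines. Taking out the group means makes some correlations negative wherever others are positive, so the negative ones are no separate check of the pairing. With 1 library per line, p-values measure the spread between pairs of different lines. Exact 95% Poisson intervals cover counting error only. All members above the minimum are named; of each other list, the 2 tested genes with the highest and the 2 with the lowest mean change. The members and lists were chosen with earlier results of these data known. Promoter windows are RefSeq's, without the transcribed bases.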

Additional observations from a re-analysis of the deposited data

Results flagged for a closer look

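Members of both transporter families changed in opposite directions in different pairs, each by at least 1.5-fold, and the differences were not tested because each line had 1 library. SLC30A4 was higher in LnCaP-abl and VCaP-CR than in their parents and lower in LAPC4-CR than in LAPC4, so its log2 change in the LnCaP pair exceeded that in the LAPC4 pair by 2.10, and that in the VCaP pair exceeded it by 1.94. SLC39A13 was higher in LnCaP-abl and lower in LAPC4-CR than in the parent, with a difference of 1.999 between the LnCaP and LAPC4 pairs. SLC39A10 went the other way, lower in LnCaP-abl and higher in LAPC4-CR, with a difference of -1.32 between the same pairs.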

How the results depend on the processing

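Castration state and medium changed together, each line had 1 library, and the MT1 and MT2A genes had 211 to 992 counts per library, so changes of MT1A, MT1B and MT1M were not detectable at this depth. With no replicate block, edgeR called 0 members between the states and gave MT1G, MT1F, MT3, SLC39A11 and SLC39A8 no unadjusted p under 0.05. Leaving out each pair in turn gave 0 to 1 members called between the states, the 1 being SLC39A8 without the LAPC4 pair, and 1 to 9 called between parental lines, with 1 (SLC30A4) without the VCaP pair; over all genes, 17.0%, 2.31% and 15.4% were called between lines without the LnCaP, VCaP and LAPC4 pair, and 0.289% between states without the LAPC4 pair. With no filter on low values, edgeR called 0 members and 0.437% of all genes between the states. Between parental lines, 11 members were called with no filter on low values (35 tested, 11.7% of all genes called). With protein-coding genes only 4 were called (11.4%), MT1E and MT3 among them, and with limma 4 (7.91%), MT1E among them. MT1E and MT3 passed the minimum only through the VCaP lines.

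Members past 2-fold fell with a pseudocount of 5, to 2 higher and 0 lower in the LnCaP pair, 1 higher and 0 lower in the VCaP pair, and 2 higher in the LAPC4 pair. In the LAPC4 pair, 1 was lower with a pseudocount of 0.25 and 1 with TMM-scaled CPM. Fitted log2 changes turned direction for 6 members, all small in the fit used: MT1X was 0.12 with no filter, and -0.30 to 0.31 when each pair was left out in turn. The same left-out ranges were -0.13 to 0.30 for SLC39A1, -0.29 to 0.26 for SLC39A4, -0.055 to 0.56 for SLC39A6, -0.25 to 0.54 for SLC39A10 and -0.63 to 0.77 for SLC39A13. With no filter SLC39A4 was 0.039. With no replicate block SLC39A10 was -0.15 and SLC39A13 -0.10. SLC39A13 was -0.036 with upper-quartile factors and -0.024 with protein-coding genes only. The cause was not tested. Of 240 fitted changes under alternatives, 227 kept their direction and their side of the threshold. The side kept was always that of no call. MT1E, MT1F and MT3 count as kept with DESeq2, which gave them no adjusted p. The median log2 change of all genes tested was 0.01, against -0.12 with upper-quartile factors and 0.13 with no filter. Further alternatives were chosen after seeing the data: leaving out small RNA classes gave 0 and 7 members called, and adding the other rows of the MT family without MT1P3 gave log2 changes of the sum of 0.58, 0.26 and 0.62.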
